A study of Mus musculus with 10 samples.

Results

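The PSI-F graft of day 7 was compared with the PSI graft of the same day, over all genes of the array and beyond the hair keratins. These are 2 of the 10 arrays of the series, 1 per condition, and the comparison is the log2 level in PSI-F minus that in PSI. A PSI graft held rat islets in a scaffold of clotted rat plasma, and a PSI-F graft also held cultured skin fibroblasts from nu/nu mice. Recipients of both kinds were male Swiss nu/nu (nude) mice, 6 weeks old, made diabetic with streptozotocin, and the graft lay under the skin directly on the muscle of the abdominal wall. The arrays of days 1, 3 and 10 hold the same kinds of graft, and Control (healthy) and Diabetic (streptozotocin only) are biopsies of non-transplanted mice. Nude mice have no thymus and so lack most mature T cells, but keep natural killer cells, macrophages and neutrophils. A mouse array sees rat islet transcripts only where they bind its probes. With 1 array per graft there is no replicate error and no p-value for a single gene, so the differences of days 1, 3 and 10 serve as the yardstick. A difference of 2 on the log2 scale is 4-fold and a difference of 1 is 2-fold.

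A graft under the skin takes in host cells, and several programmes can be read in its RNA. Interferons are immune signals. Type I interferons switch on antiviral genes through the ISGF3 complex, which binds the interferon-stimulated response element (ISRE). Interferon-gamma, made by natural killer and T cells, acts at GAS (gamma-activated site) elements and through IRF1. It induces GTPases and the chemokines Cxcl9, Cxcl10 and Cxcl11. Muscle fibres that form anew pass through a stage with embryonic and neonatal myosins and cardiac actin before they switch to the adult isoforms. Hair shafts are built of keratins and keratin-associated proteins, made in bulk while a follicle grows.

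Hair genes, interferon-induced genes and embryonic muscle genes were among those with large differences between the day 7 grafts. Cxcl11, a chemokine that draws activated T cells and natural killer cells, was 12.3-fold higher in PSI-F (3.62 on the log2 scale), and Cxcl10, which binds the same receptor, was 4.87-fold higher (2.28). Myh3, the embryonic myosin heavy chain, was 11.1-fold lower in PSI-F (-3.48), and Actc1, the cardiac alpha-actin of embryonic muscle, was 16.8-fold lower (-4.07). The single largest difference outside the hair keratins was that of Idi2, an isopentenyl-diphosphate isomerase, at 6.32.

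Sequences before the start sites of some interferon-induced genes and of Actc1 are shown. These genes were picked because they carry the elements that these signals and the muscle programme are known to use. They are the 250 bases before the annotated start, from RefSeq on GRCm38.p6, written 5′ to 3′ on the gene's strand. Capitals mark the ISRE core, which is GAAA, 2 bases of any kind and GAAA again, or TTTC in place of both on the other strand, and, in Actc1, a CArG box, the serum response factor element of muscle actin genes. In Igtp the first of the adjoining capital runs is a GAS element, TTC and GAA with 3 bases of any kind between them, which reads the same on both strands.
Cxcl10 (chr5:92348890-92349139, minus strand): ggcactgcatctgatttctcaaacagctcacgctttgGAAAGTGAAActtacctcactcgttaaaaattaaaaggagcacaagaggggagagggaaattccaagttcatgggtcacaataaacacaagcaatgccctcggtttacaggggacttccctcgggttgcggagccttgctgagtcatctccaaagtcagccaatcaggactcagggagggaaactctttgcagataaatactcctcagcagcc
Igtp (chr11:58199306-58199555, plus strand): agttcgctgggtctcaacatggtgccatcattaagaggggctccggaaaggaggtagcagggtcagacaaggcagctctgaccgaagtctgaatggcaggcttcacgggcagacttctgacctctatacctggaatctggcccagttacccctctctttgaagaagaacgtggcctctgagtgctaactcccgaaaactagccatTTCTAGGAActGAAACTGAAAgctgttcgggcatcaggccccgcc
Ifit1 (chr19:34640639-34640888, plus strand): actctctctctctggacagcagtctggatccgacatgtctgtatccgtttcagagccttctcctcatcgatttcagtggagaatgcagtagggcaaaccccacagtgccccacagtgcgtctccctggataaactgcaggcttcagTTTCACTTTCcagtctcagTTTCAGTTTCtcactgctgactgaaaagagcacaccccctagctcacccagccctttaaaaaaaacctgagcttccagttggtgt
Rsad2 (chr12:26456453-26456702, minus strand): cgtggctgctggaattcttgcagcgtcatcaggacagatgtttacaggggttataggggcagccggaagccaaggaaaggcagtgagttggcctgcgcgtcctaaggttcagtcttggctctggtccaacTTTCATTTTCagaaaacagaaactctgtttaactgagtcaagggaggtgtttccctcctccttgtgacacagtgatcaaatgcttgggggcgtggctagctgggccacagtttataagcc
Actc1 (chr2:114052876-114053125, minus strand): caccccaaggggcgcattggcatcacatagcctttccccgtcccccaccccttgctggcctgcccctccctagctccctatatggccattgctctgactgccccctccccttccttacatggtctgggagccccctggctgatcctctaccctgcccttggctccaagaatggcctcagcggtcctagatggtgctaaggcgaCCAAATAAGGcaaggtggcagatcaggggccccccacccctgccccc

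The ISRE core of Cxcl10 began 213 bases before the start, that of Igtp, an immunity-related GTPase, 34 bases before it, and those of Ifit1, an antiviral RNA-binding protein, 104 and 85 bases before it. A promoter was found for 14452 of the 18193 genes of the array, and 3.13% of them held an ISRE core and 7.42% a GAS element in this window. Of the interferon-gamma response genes with a promoter, 8 of 12 held an ISRE core and 5 of 12 a GAS element. Of the type I response genes, 9 of 21 held an ISRE core and 3 of 21 a GAS element. Cxcl9 and Irf7, which are not shown, held neither. None of the 15 muscle regeneration genes with a promoter held either, and Actc1 was the 1 of them with a CArG box, which 1.43% of all promoters had. A match is a description of letters and no evidence of binding.

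Leaving out the 58 hair keratin genes, 36 of 18135 genes were at least 4-fold apart on day 7, 22 of them higher in PSI-F (0.121% of the genes) and 14 lower (0.0772%). The 58 were picked by gene symbol, so gene models without such a symbol stayed in. Of the 22 genes, 11 followed the hair keratin median over the 10 arrays (Pearson r over 0.8). In either direction, 23 genes (0.127%) passed on day 1, 92 (0.507%) on day 3 and 13 (0.0717%) on day 10, so that day 7 came second. At 2-fold, 138 genes were higher (0.761%) and 150 lower (0.827%) on day 7. The direction was mixed on this day, and also on day 10, with 54 higher and 63 lower (0.298% and 0.347%). On days 1 and 3 more genes were at least 2-fold lower than higher in PSI-F, 137 against 48 (0.755% against 0.265%) and 294 against 180 (1.62% against 0.993%). The SD of the difference over genes was 0.374 on day 7, between 0.334 on day 1 and 0.426 on day 3, and 0.251 on day 10. All these genes together had a median of -0.06 on day 7, and the lower and upper quartiles lay at -0.26 and 0.16.

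**Figure D1:**
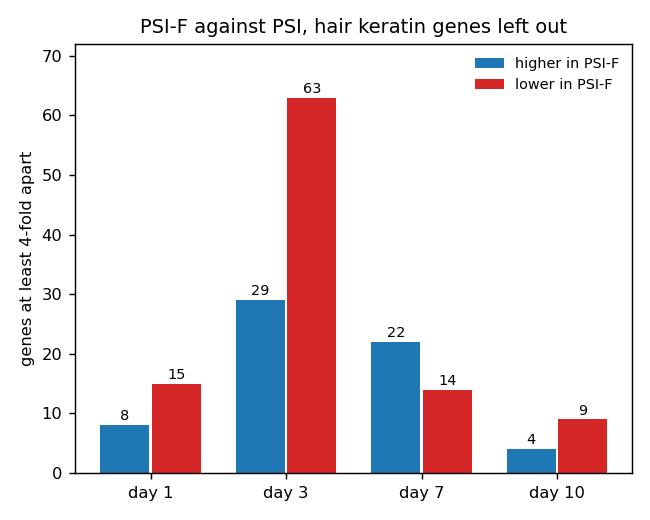
Number of genes at least 4-fold apart between PSI-F and PSI (vertical axis) on each day, hair keratin genes left out, with blue bars for genes higher and red bars for genes lower in PSI-F, 1 array per graft. Day 7 has 22 and 14 genes, against 29 and 63 on day 3 and 4 and 9 on day 10.

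Array-wide measures moved with this comparison as well. The median difference depended on the level of a gene: it was 0.10 for genes with a mean level under 3, -0.18 for those between 5 and 7 and -0.08 for those above 9. The bacterial poly-A controls, which are normally spiked into the RNA before labelling, were higher in the PSI-F array in 23 of 24 probe sets (median 0.42), whereas their medians on the other days were -0.24, 0.05 and -0.08. The 3′ minus 5′ difference of Actb, a measure of RNA integrity, was 0.58 in PSI and 0.76 in PSI-F, and that of Gapdh 0.29 and 0.15. The part of these measures in the results below was not tested. Ins2, an insulin gene and the check of the islets, was at 10.16 in PSI and 9.95 in PSI-F, against 2.27 in Control and 3.13 in Diabetic.

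**Figure D2:**
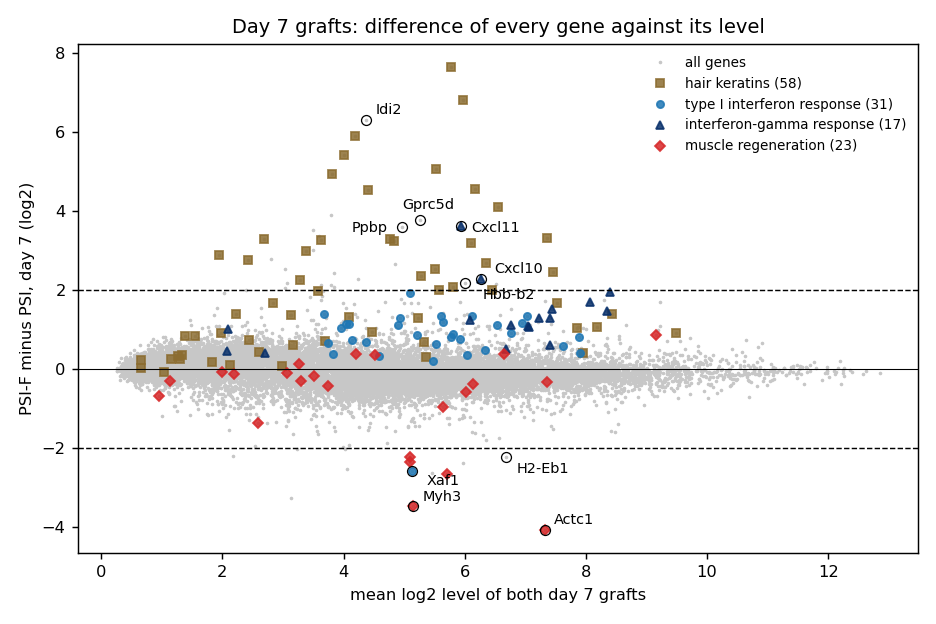
PSI-F minus PSI on day 7 (vertical axis, log2) against the mean log2 level of both arrays (horizontal axis), 1 point per gene, with coloured marks for 4 gene lists, black rings around labelled genes and dashed lines at 4-fold. Nearly all hair keratins and interferon-induced genes lie above 0, with Xaf1 as the exception past 4-fold, and 5 muscle regeneration genes lie below the lower dashed line.

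The 31 genes of the type I interferon response were higher in PSI-F with 1 exception. At least 2-fold higher were 13 of them and 1, Xaf1, was that much lower, beside 0.761% and 0.827% of all genes, and 30 of 31 lay above 0, beside 42.6% of all genes. Their median difference was 0.86 on day 7, against 0.52, -0.95 and 0.45 on days 1, 3 and 10. Day 7 was the highest of the 4 days for 20 of the 31 genes, which was so for 19.9% of all genes.

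The largest differences among them were those of Ifi204, a DNA sensor, at 1.93 (4.13 in PSI and 6.06 in PSI-F), of Oas3, an enzyme that activates antiviral RNA decay, at 1.39, and of Ifit2 at 1.34. Irf7, the transcription factor that amplifies type I interferon, was at 5.45 in PSI and 6.79 in PSI-F, a difference of 1.34. Both values were below those of the day 1 grafts, where Irf7 stood at 8.04 and 8.47, and above Control (4.41) and Diabetic (4.33). Ifi209, another DNA-sensing gene of the Ifi200 family and on neither interferon list, was 5.39-fold higher (2.63 and 5.06), while its second probe set differed by 0.81. The list as a whole thus had its highest levels on day 1, with medians of 6.52 and 7.37, and on day 7 stood at 5.20 in PSI and 6.06 in PSI-F. Xaf1, an interferon-induced partner of XIAP, was the exception at -2.58, but its second probe set differed by 1.29, in the direction of the other genes, so that no direction can be given for this gene.

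The 17 genes of the interferon-gamma response had a median of 1.25 on day 7. Every one of them was higher in PSI-F, 13 at least 2-fold. On days 1, 3 and 10 the medians were 0.88, -0.70 and -0.48, and the counts at least 2-fold higher and lower were 5 and 0, 0 and 5, and 0 and 4. Over all genes outside the hair keratins these shares were 0.265% and 0.755% on day 1, 0.993% and 1.62% on day 3, and 0.298% and 0.347% on day 10. Both interferon lists thus had medians below 0 on day 3 and above 0 on days 1 and 7, and on day 10 their medians were of opposite sign. Whether the lists differed from each other was not tested.

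Cxcl11 was at 4.13 in PSI and 7.75 in PSI-F on day 7, the highest of the 10 arrays. On the other arrays it was at 3.04 in Control, 2.82 in Diabetic, 4.60 and 6.63 in PSI and PSI-F of day 1, 4.52 and 3.39 of day 3, and 5.53 and 3.60 of day 10. The higher graft was thus PSI-F on days 1 and 7 and PSI on days 3 and 10. Its second probe set was near background (0.71 and 0.98 on day 7) and differed by 0.27. Cxcl10 followed the same order, with 5.13 and 7.41 on day 7 and differences of 1.69, -0.22 and -1.72 on days 1, 3 and 10. Cxcl9, the third ligand of the receptor Cxcr3, reached 9.39 in PSI-F against 7.43 in PSI, and on day 10 the order was turned, with 6.33 against 8.41.

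The GTPases that interferon-gamma induces against intracellular microbes were higher together. Iigp1 was at 7.21 and 8.92 in PSI and PSI-F (1.71), Igtp at 6.67 and 8.20 (1.53) and Gbp2, a guanylate-binding protein, at 7.62 and 9.08 (1.46). For each of these 3 genes the PSI-F graft of day 7 had the highest level of all 10 arrays. The PSI graft of day 7 lay close to that of day 3, where Igtp was at 6.97, and that of day 10, where it was at 6.72. Irf1, the transcription factor induced first, differed by 0.61, and Socs1, the feedback inhibitor, by 0.45 at levels near background.

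**Figure D3:**
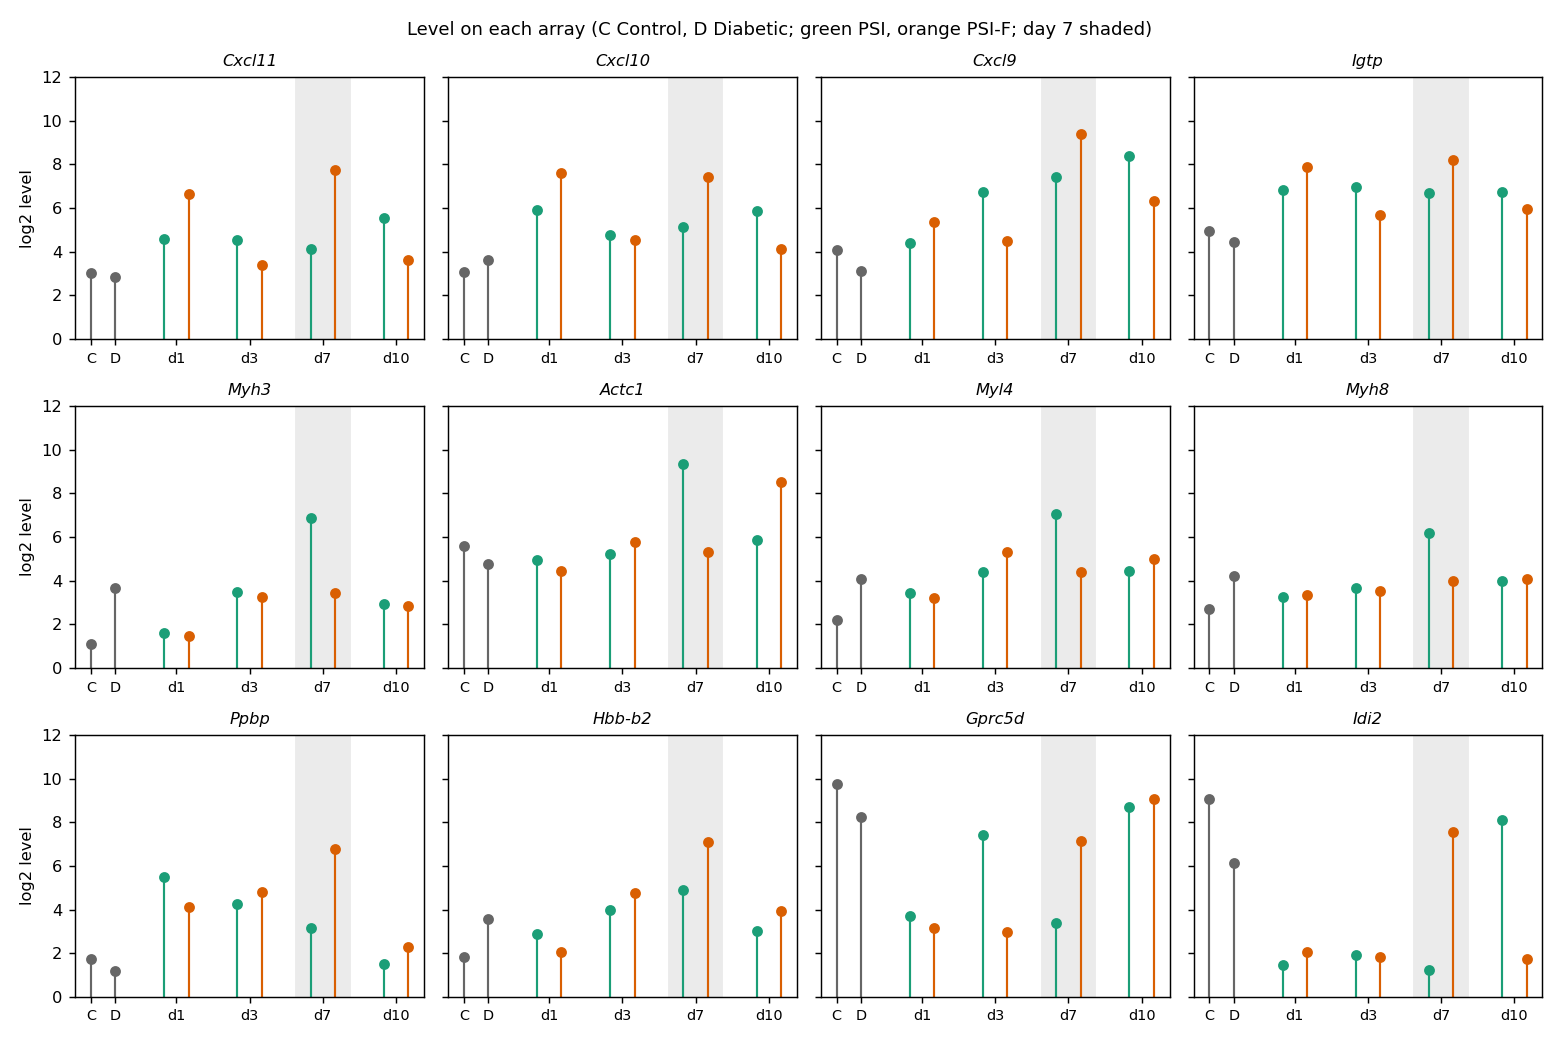
Log2 level (vertical axis) of 12 genes on each of the 10 arrays, with Control and Diabetic in grey, PSI in green, PSI-F in orange and day 7 shaded. Cxcl11, Cxcl9 and Igtp peak in PSI-F of day 7, whereas Myh3, Actc1, Myl4 and Myh8 peak in PSI of day 7.

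Genes of natural killer and T cells were dim. Of 19 genes, 3 passed 2-fold upwards and 0 downwards (median 0.50), beside 0.761% and 0.827% of all genes, and 17 had levels under 5 in both grafts. Gzmb, the protease granzyme B, was at 2.68 and 4.65, Gzma, granzyme A, at 3.84 and 5.54, and Klrk1, an activating receptor, at 3.00 and 4.15. Prf1, the pore-forming perforin, and Nkg7, a granule protein, were under 2-fold, at 0.69 and 0.90. The gene of interferon-gamma itself, Ifng, was at 0.64 and 1.45, in the range of background. Cd3e and Cd8a, of T cells, differed by 0.50 and 0.68 at levels under 4. In bulk samples, fewer cells of a type and less RNA per cell cannot be told apart.

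Genes of antigen presentation lay above 0 for class I and around 0 for class II. Of 16 genes of MHC class I and antigen processing, none was 2-fold apart, but 15 were higher in PSI-F (median 0.42), beside 42.6% of all genes. Among them were H2-K1 at 0.72 (1.65-fold), H2-D1 at 0.66 and Nlrc5, the activator of class I genes, at 0.57. The 9 class II genes had a median of -0.08, and only H2-Eb1, a class II beta chain, was past 2-fold, at -2.23. H2-Eb1 was at 7.80 in PSI and 5.57 in PSI-F of day 7, at 7.52 and 4.75 on day 3 and at 8.22 and 6.19 on day 10, while on day 1 it was at 6.78 and 7.30. It was thus at least 4-fold lower in PSI-F on 3 of the 4 days. Other class II genes did not share this: H2-Ab1 and H2-Aa, the chains of the second class II molecule, differed by 0.31 and 0.05 and Cd74, the invariant chain, by -0.14 on day 7. H2-Ea, which encodes the alpha chain that pairs with H2-Eb1, was on no list and was looked up after the values of H2-Eb1 were seen, and it differed by 0.53.

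The chemokine list held 30 genes, and on day 7 8 passed 2-fold upwards and 0 downwards (median 0.43), beside 0.761% and 0.827% of all genes. On day 10 the counts were 0 and 7, beside 0.298% and 0.347%. Besides the ligands of Cxcr3 these were Ccl12 (1.67), Ccl2 (1.41) and Ccl5 (1.39), and the platelet chemokines Ppbp (3.60) and Pf4 (1.15). Ccl2, the main monocyte attractant, was at 4.93 in PSI and 6.34 in PSI-F, below the 7.96 and 8.21 of day 1. Of the ligands of the neutrophil receptor Cxcr2, to which a product of Ppbp also binds, Cxcl2, Cxcl3 and Cxcl5 differed by 0.06, -0.17 and 0.35. None of 17 neutrophil genes was 2-fold apart (median 0.24), but 10 of them had levels under 5 in both grafts. Of 23 monocyte and macrophage genes, 2 were at least 2-fold higher, the scavenger receptor Msr1 (1.26) and the Fc receptor Fcgr1 (1.16). Above 0 lay 21 of them (median 0.39), beside 42.6% of all genes. With the average over a gene's probe sets, 0 of the 23 passed 2-fold. Cd5l, a protein secreted by tissue macrophages, was 4.87-fold higher, with 3.09 and 5.37 on day 7 and 5.02 and 5.38 on day 3. None of 21 inflammatory cytokine genes was 2-fold apart (median 0.09), but 14 of them had levels under 5 in both grafts.

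In the other direction, genes of newly forming muscle were lower in PSI-F, while those of adult muscle were nearly even. The muscle regeneration list held 23 genes, of which 6 passed 2-fold downwards, 5 of them 4-fold, and 0 upwards (median -0.33), beside 0.827% of all genes lower at 2-fold, 0.0772% lower at 4-fold and 0.761% higher at 2-fold. Day 7 was the lowest of the 4 days for 16 of the 23 genes, which was so for 31.7% of all genes. None of 28 adult skeletal muscle genes was 2-fold apart (median -0.14), and their median level was 11.34 in PSI and 11.19 in PSI-F.

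Myh3 was at 6.89 in PSI and 3.41 in PSI-F of day 7. On the other arrays it was at 1.12 in Control, 3.68 in Diabetic, 1.59 and 1.45 in PSI and PSI-F of day 1, 3.49 and 3.27 of day 3, and 2.93 and 2.82 of day 10. The PSI graft of day 7 thus stood above all other arrays, and the PSI-F graft lay among them. Myh8, the neonatal myosin, had the same order, with 6.20 and 3.98 on day 7 and levels between 2.68 in Control and 4.21 in Diabetic elsewhere. Myl4, the embryonic and atrial light chain, was at 7.03 and 4.38, with 5.32 in PSI-F of day 3 as the next highest level, while its second probe set, near background, differed by 0.35.

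Actc1 was at 9.37 in PSI and 5.29 in PSI-F of day 7, and on day 10 the order was turned, with 5.87 in PSI and 8.50 in PSI-F. All other arrays lay between 4.46 in PSI-F of day 1 and 5.76 in PSI-F of day 3. Cardiac actin was thus high in 1 graft of each of the later days, first PSI and then PSI-F, but Myh3, Myh8 and Myl4 were not high in PSI-F of day 10, at 2.82, 4.08 and 4.98. Ankrd1, a stress-induced nuclear protein of muscle, was at 6.27 and 3.91 on day 7, and both of its probe sets had this difference (-2.36 and -2.41). On day 3 it was higher in PSI-F by 3.54. Mymk, the membrane protein myomaker that fuses myoblasts, was at 3.27 and 1.90, and the regulators Myod1 (0.38), Myog (-0.42) and Pax7 (-0.08) were under 2-fold.

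**Figure D4:**
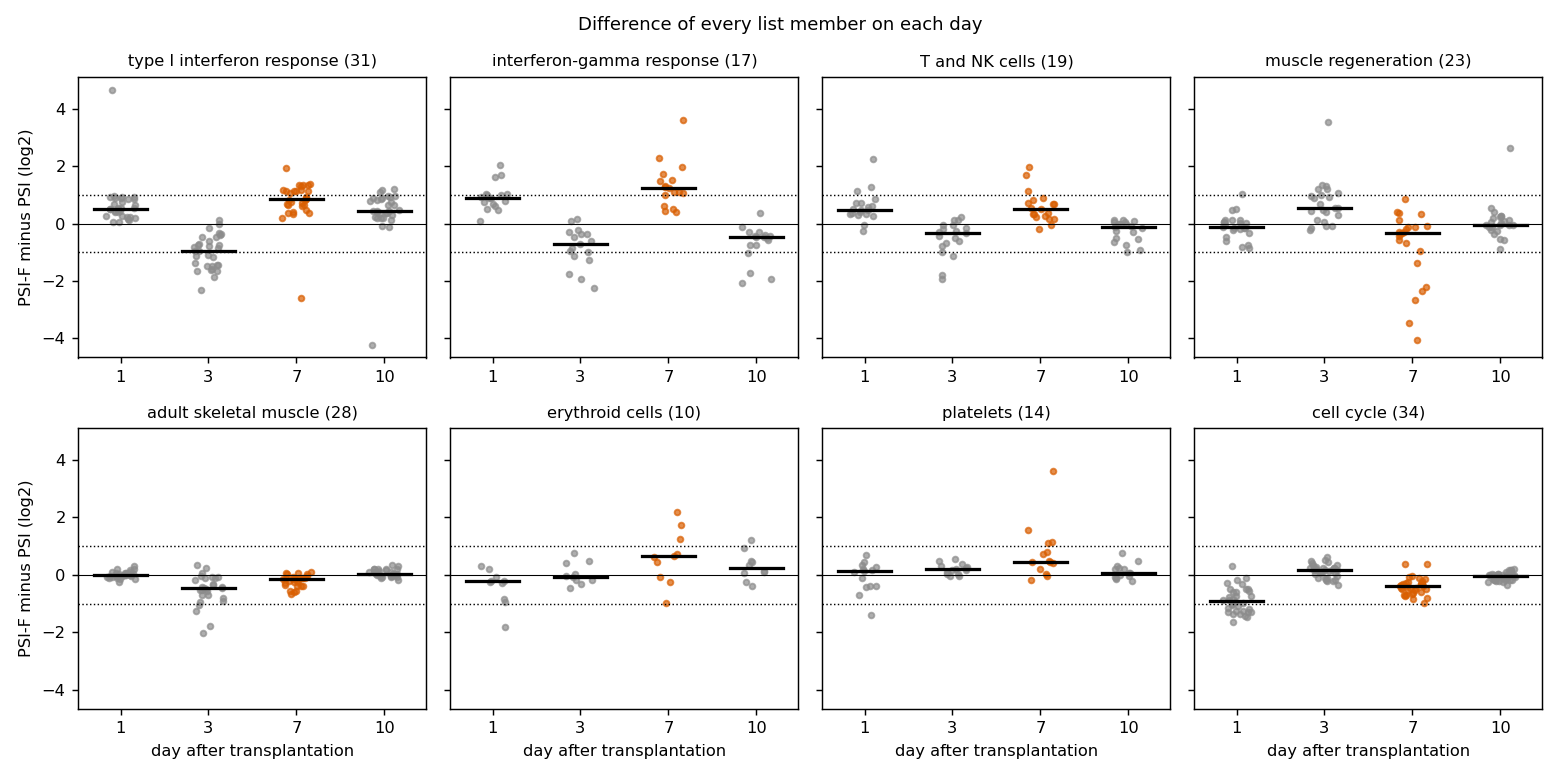
PSI-F minus PSI difference (vertical axis, log2) of every member of 8 gene lists on days 1, 3, 7 and 10 (horizontal axis), 1 point per gene, with day 7 in orange, a black bar at the median and dotted lines at 2-fold. On day 7 the interferon-gamma median is 1.25 and that of muscle regeneration is -0.33 with 6 genes past 2-fold below, whereas adult muscle stays within 2-fold.

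Some genes of red cells and platelets were higher in PSI-F on day 7, most of them at low levels. Of 10 erythroid genes, 3 were at least 2-fold higher (median 0.64), and of 14 platelet genes, 4 were (median 0.46), with none that much lower in either list, beside 0.761% of all genes higher and 0.827% lower. Ppbp was at 3.16 in PSI and 6.76 in PSI-F, the highest of the 10 arrays, and at 5.51 and 4.10 on day 1. Alas2, the first enzyme of haem synthesis in red cells, was at 6.46 and 8.19 (1.73), and Slc4a1, the band 3 anion exchanger, at 3.73 and 4.97 (1.24). Hbb-b2, a beta-globin, was at 4.91 and 7.09 by its brighter probe set (2.18), while its other probe set was near background and differed by -0.62. The alpha-globins Hba-a1 and Hba-a2, at levels under 2, differed by -0.07 and -0.25. Clec1b, a platelet receptor, differed by 1.55 (1.13 and 2.68). Tfrc, the transferrin receptor that many dividing cells also carry, went the other way (-0.97). In 12 of the 14 platelet genes both levels were under 5.

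Genes that were high on the arrays where hair keratins were high made up much of what was left among the genes higher in PSI-F. The hair keratins, with 36 of 58 at least 2-fold higher on day 7 (beside 0.956% of all genes, hair keratins included) and a median of 1.52, had a median level of 2.58 in PSI and 5.39 in PSI-F, against 8.51 in Control. Outside them, Gprc5d, a receptor of the hair cortex, was at 3.38 and 7.15 (3.77), and on day 3 at 7.43 and 2.96. The gene models Gm11559 (3.89), 2310034C09Rik (3.53), Gm11567 (3.37), Gm10228 (3.02) and 2310061N02Rik (2.67) were off the hair keratin list by their symbols only. They had the same order on both days, higher in PSI-F on day 7 and at least 4-fold lower on day 3. Of 14 other hair follicle genes, 5 passed 2-fold upwards and 0 downwards on day 7: Gprc5d, Crym (1.76), Tchh, the trichohyalin of the inner root sheath (1.70), Padi1, which citrullinates it (1.33), and Foxn1, the transcription factor whose mutation makes mice nude (1.32). Above 0 lay 11 of the 14, beside 42.6% of all genes. The 3 below 0 were the regulators Lef1 (-0.18), Msx1 (-0.65) and Shh (-0.89). Other regulators, Hoxc13 (0.16), Msx2 (0.19) and Dlx3 (0.06), lay slightly above it.

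Idi2 did not follow this order on all days. It was at 1.22 in PSI and 7.54 in PSI-F of day 7, and on day 10 at 8.10 in PSI and 1.74 in PSI-F. The Control biopsy stood at 9.05 and the Diabetic at 6.13, whereas the grafts of days 1 and 3 ranged from 1.46 to 2.04. Its levels thus fell into a high set of 4 arrays and a low set of 6, with 1 graft of each later day in each set. Idi2 was read by 1 probe set, so that no second one bears on these levels.

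The further genes lower in PSI-F had varied functions. Tceal7 was at 6.78 and 4.14 (-2.65), its highest and sixth highest level among the 8 grafts. Rbp7, a retinol-binding protein, was at 5.33 and 2.80 (-2.53), and in PSI-F of day 10 at 5.77. Wif1, a secreted inhibitor of Wnt proteins, was at 5.04 and 3.01 (-2.03) and differed by -1.90 and -1.88 on days 1 and 3, so that the difference of day 7 was close to those of the earlier days. Cnot6l, a subunit of the mRNA deadenylase, differed by -2.38 in its brightest probe set but by -0.14, -0.45 and -0.38 in the other three. H3f3b, a histone H3.3 gene, was at 5.04 and 3.12 (-1.92).

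The remaining genes past 4-fold were Klhl41, a muscle sarcomere protein, higher by 2.16 (5.44 and 7.60), and 11 genes with levels under 5 in both grafts. Of these, Lce3a, Tchhl1, Pla2g2e, Gm11563, Atp13a4, Golt1b, Trim34a and Lyg1 were higher, by 2.01 for Lyg1 up to 2.80 for Tchhl1. 1700020D05Rik (-3.27), Slc15a5 (-2.20) and Slc22a4 (-2.03) were lower. The second probe sets of Golt1b and Trim34a did not share the difference (-0.19 and -0.05). At such levels a difference is less certain.

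The lists of fibroblasts, vessels, matrix and islets held few genes past 2-fold on day 7. None of 29 fibroblast and matrix genes was 2-fold apart (median -0.14), and its median level was 9.66 in PSI against 9.67 in PSI-F, and Col1a1, the main collagen, was at 12.36 and 12.35. None of 25 endothelial genes was 2-fold apart, with a median of -0.11 that turned to 0.05 under cyclic loess normalization. Of 22 angiogenic ligands, 1 was past 2-fold, the growth factor Igf2 at -1.29 (7.77 and 6.48), and Vegfa differed by -0.06. The second probe set of Igf2, near background, differed by 0.03, and with their average no gene of this list passed 2-fold. Among 25 matrix proteases and inhibitors, Mmp11 (-1.45) and Mmp12 (-1.06) were at least 2-fold lower and none was that much higher. Over all genes outside the hair keratins, 0.827% were that much lower and 0.761% higher. Under cyclic loess, 1 gene of this list was that much lower and 1 that much higher. None of 24 islet endocrine genes was 2-fold apart, but 21 of them had levels under 5 in both grafts (median levels 2.49 in PSI and 2.27 in PSI-F). This list thus says little about the islets. The study named a chitinase 3, which was read here as both Chil1 and Chil3, genes of chitinase-like proteins. Chil1 differed by -1.68 on day 7 (7.14 in PSI and 5.46 in PSI-F). Chil3 and the other genes the study named, Il1b, Il6, Reg1 and Reg3g, lay between -0.16 for Il6 and 0.47 for Chil3 on that day. The overexpression with fibroblasts that the study described for these genes was that of day 3. On day 3 their list of 6 had a median of 2.57, and 6 passed 2-fold upwards, beside 0.993% of all genes outside the hair keratins. The study had picked these genes from these same arrays, so their day 3 values are no independent support for its description.

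Small differences below 0 were shared by most members of further lists, in an array pair whose genes as a whole lay below 0 at these levels (-0.18 between levels 5 and 7, -0.14 between 7 and 9 and -0.08 above 9). Over all genes, 42.6% lay above 0 on day 7. The 7 sebaceous gland genes had the lowest median of the 44 lists (-0.71), with 5 of 7 below 0 and Acsbg1, a fatty acid-activating enzyme, past 2-fold (-1.26). Of 34 cell cycle genes, 32 were below 0 but none 2-fold (median -0.39, against -0.92 on day 1). All 17 lipid synthesis genes were below 0 (median -0.33), with Elovl6, a fatty acid elongase, at -1.02, which was under 2-fold with the average over its probe sets and under cyclic loess, and so were 30 of 31 respiratory chain genes (median -0.27). In the circadian clock, Nr1d1 (-1.25) and Dbp (8.10 in PSI and 7.10 in PSI-F), both driven by Clock and Arntl, were lower in PSI-F, while Clock (-0.16) and Arntl (-0.01) themselves were even. The sources used here do not give the hour at which grafts were removed.

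Whether the day 7 difference departed from the mean of those of days 1, 3 and 10 was tested in limma over the 8 grafts, with day as a block. Out of 45037 probe sets, 0 passed an adjusted p of 0.05 (Benjamini-Hochberg, 0.0% called), and 2121 had an unadjusted p under 0.05 (4.71%). The smallest adjusted p was 0.175, that of Myh3, whose day 7 difference lay below the mean of the other days by -3.31 ± 0.223 (SE). This SE was shrunk by limma toward the spread of all probe sets, and the fit itself left 2 residual degrees of freedom. The genes that follow were ranked among probe sets with 1 gene symbol only. Next in this direction were 1700020D05Rik (-3.22, limma adjusted p = 0.259) and Myh8 (-2.24, limma adjusted p = 0.55), and then Slc15a5 (-1.87) and Khdc4 (-1.78). Among the same probe sets, the smallest p-values in the upward direction were those of Ptgds (1.86), Cd5l (2.34), Stk33 (2.18), Ifi204 and a second probe set of Slc4a1 (1.93), with limma adjusted p-values of 0.935 to 0.975.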

How the data were processed

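RNA of 2 biopsies (Control, Diabetic) and 8 grafts was hybridized to Affymetrix mouse genome arrays, 1 per condition, of which the PSI and PSI-F arrays of day 7 are compared here. The deposited values are log2 levels per probe set, which the authors made with RMA (background correction, quantile normalization and a summary per probe set). R 2.15.0 and affy 1.36.0 are named in the processing notes of the submitters. Methods of the study state that the samples of best RNA quality were hybridized, and the sources used here do not say whether RNA was pooled. Array medians lay between 2.82 and 2.94, and levels under 5 were treated as dim. The number of arrays limits the precision.

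Of 45101 probe sets, 64 controls were left out. Of the other 45037, 34945 had 1 gene symbol, 932 had several and 9160 had none in the platform annotation. Where a gene had several probe sets, the brightest on average over the 10 arrays stood for it, which gave 18193 genes. Differences of at least 4-fold, the size from which the study began, and 2-fold were counted. The 44 gene lists held 992 names, of which 906 were matched. The members and lists were chosen with earlier results of these data known. Genes named are the 12 largest differences per direction (hair keratins left out, higher day 7 level of at least 5). Also named are the 5 smallest limma p-values per direction, ranked among probe sets with 1 gene symbol. Up to 4 members per list and the genes named by the study were named too. Further list members, the second probe sets and the dim genes past 4-fold were added after their values were seen.

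The difference of day 7 was tested against the other days with limma 3.58.1 in R 4.3.3, which treats days 1, 3 and 10 as replicates and assumes that the single pair of day 7 varies like them. The test was checked on simulated data, where it missed most changes of 2-fold and of 4-fold. The absence of calls thus does not show that no gene differed. Promoter sequences were taken from RefSeq (GRCm38.p6) by gene symbol. As alternatives, the threshold was set to 2-fold and dim levels were filtered out, with cyclic loess (3 iterations) on top of the deposited values, arrays centred on their medians, controls included, hair keratins left out, the average over a gene's probe sets, and, in limma, an intensity trend, a mean level of at least 4 and leaving out each other day. Python 3.11.15 with numpy 2.4.6, pandas 2.3.3 and, for figures, matplotlib 3.10.9 was used.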

Additional observations from a re-analysis of the deposited data

Results flagged for a closer look

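In 17 genes outside the hair keratins, the difference of day 7 and that of another day were both at least 4-fold and of opposite sign. Each rests on 1 array per graft, and the change of sign between the days was not tested. Idi2 was at 6.32 on day 7 and -6.36 on day 10. Actc1 was at -4.07 on day 7 and 2.63 on day 10. Against day 3, 12 genes had opposite signs, 10 of them with levels that went with the median of the hair keratins over the 10 arrays (Pearson r over 0.8). These 10 were Gm11559 (-6.52 on day 3, 3.89 on day 7), Gm11567 (-5.66 and 3.37), Gm11563 (-4.65 and 2.06), Tchhl1 (-4.58 and 2.80), Gprc5d (-4.47 and 3.77), 2310034C09Rik (-4.33 and 3.53), Gm10228 (-4.12 and 3.02), 2310061N02Rik (-3.46 and 2.67), Pla2g2e (-2.18 and 2.12) and Atp13a4 (-2.11 and 2.18). The other two were Ankrd1 (3.54 and -2.36) and Golt1b (-2.66 and 2.13), whose second probe set differed by -0.19 on day 7. Against day 1, Klhl41 went from -2.27 to 2.16, Xaf1 from 4.65 to -2.58 and Cnot6l from 2.29 to -2.38. Those of Xaf1 and Cnot6l are from 1 probe set that the other probe sets of the gene do not follow.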

How the results depend on the processing

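With 2-fold as the threshold, 619 probe sets were apart on day 7, against 78 at 4-fold. By gene, leaving out the hair keratins took the count from 61 to 36. A filter on dim levels (55 probe sets, 45 genes), cyclic loess (82 and 63), arrays centred on their medians (75), controls included (78) and the average over a gene's probe sets (52 genes) kept the counts within 1.5 times of 78 and 61. Of the 24 genes with the largest differences, 5 came under 4-fold with that average, Cxcl11 (1.94), Ifi209 (1.62), Myl4 (-1.15), Cnot6l (-0.84) and Xaf1 (-0.65), and Wif1 did so under loess (-1.91). None of the 24 changed direction under these alternatives. Of the 44 gene lists, the count past 2-fold moved by over 1.5 times in 7 with the average over probe sets and in 4 under loess. With the average it went from 2 to 0 in monocytes and macrophages, from 1 to 0 in lipid synthesis, angiogenic ligands, epidermis (Casp14), hypoxia and glycolysis (Pfkfb3) and apoptosis regulators, and from 0 to 1 in pericytes and smooth muscle. Under loess it went from 1 to 0 in lipid synthesis and immediate early genes (Fos), from 2 to 1 in the circadian clock and from 1 to 2 in melanocyte genes. The limma test made no call with an intensity trend, a mean level of at least 4 or loess, and between 0 and 9 calls when one other day was left out: 0 without day 1, 6 without day 3 and 9 without day 10 (smallest adjusted p 0.00103, Idi2), each with 1 residual degree of freedom. The cause was not tested. The limma test pairs the grafts by day, and no pairing by replicate number was possible because each group and day has 1 array. Levels under 5 limit what dim genes, such as those of T and NK cells and platelets, can show.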

Other observations

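Other gene groups held single members past 2-fold on day 7. Casp14, a protease of the outer epidermis, differed by -1.52 (8.22 in PSI and 6.71 in PSI-F), while Krt6a, a keratin of activated epidermis, differed by 1.08. Saa3, an acute phase protein, was at 8.10 and 9.22 (1.12), and Hmox1, which degrades haem, at 6.07 and 7.09 (1.02). Arg1, an enzyme of alternatively activated macrophages, was at 5.87 and 6.95 (1.08). Pfkfb3, an activator of glycolysis, differed by -1.45, and the immediate early gene Fos by -1.10.

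Agreement between probe sets of 1 gene was counted as well. Only genes with at least 2 probe sets at a level of 5 or more were taken. All such probe sets of a gene had the same sign in 28 of 31 genes at least 2-fold apart (90.3%). The counts were 2 of 3 among genes at least 4-fold apart (66.7%) and 1651 of 2452 among genes of all kinds (67.3%). Over 18135 genes, the differences of day 7 had a Pearson correlation of 0.33 with those of day 1, -0.06 with day 3 and -0.03 with day 10. Genes are not independent, and both days of such a value share the dependence of the median difference on level. Among 8086 genes with a day 7 level of at least 5 the value for day 1 was 0.21.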
